A study of Mus musculus with 8 samples.

Results

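The genes described here encode the folding, quality control and stress sensing machinery of the endoplasmic reticulum (ER), measured in whole mouse embryos that lack Arid3b and in wild-type embryos. They were a list of 37 genes of ER chaperones, ER-associated degradation and the unfolded protein response, found on the arrays by the gene name of each probe or its current equivalent, and sorted by role. All 37 were measured, out of 17099 genes tested. They had 72 probes out of 41174, of which 67 were kept as bright enough, and the brightest kept probe of each gene was well above background on all 8 arrays. Manf, Ero1a and Ero1b carried the older names Armet, Ero1l and Ero1lb on the array, and Sel1l and Ppp1r15a the names Sel1h and Myd116.

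The null group consisted of 4 pools of whole Arid3b-null embryos, and the wild-type group of 4 pools of whole wild-type embryos, all at embryonic day 9.0. Each pool held the total RNA of 3 to 4 embryos and was labelled with Cy3 on its own 1-colour Agilent array. Arid3b encodes a DNA-binding protein with an AT-rich interaction domain. The null allele, the strain, the sex of the embryos and the number of litters are not given in the sources used here. Values are log2 signals of a probe relative to the 75th percentile of its array. A signal of 0 therefore equals that percentile, and levels of different probes cannot be set against each other. Differences are null minus wild type on the log2 scale with the standard error (SE) of the limma fit.

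Secreted and membrane proteins enter the ER through the translocon, where chaperones such as Hspa5 (BiP) and disulphide enzymes fold them. Proteins that fail to fold are returned to the cytosol and destroyed, a route called ER-associated degradation (ERAD). When unfolded proteins build up, the membrane sensors Ire1 (Ern1), Atf6 and Perk (Eif2ak3) start the unfolded protein response. Ire1 splices the Xbp1 transcript and Atf6 is cut to release a transcription factor, and both raise transcripts of chaperones and ERAD genes. Perk phosphorylates the translation factor eIF2, which favours translation of Atf4 and transcription of Ddit3 (Chop). The arrays measured transcript levels and not splicing, cleavage, phosphorylation or protein.

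Arid3b, the targeted gene, had a signal of 1.89, 1.83, 1.85 and 2.48 in null pools 1 to 4 and 3.47, 3.29, 3.39 and 3.31 in wild-type pools 1 to 4. It fell by 1.35 ± 0.15 (SE, log2; limma adjusted p = 0.00577), with null pool 4 above the other null pools. Per array, 60.0% to 64.1% of probes stood well above background. Pools 1 and 2 of both groups shared slide 1 and pools 3 and 4 slide 2, with the null pools always at positions 3 and 4 and the wild-type pools at positions 1 and 2, so that position and genotype cannot be told apart. Across the series 487 genes were higher and 231 lower in the null pools at an adjusted p under 0.05. All 43 listed markers of 7 embryonic cell types were measured, which fits the label of whole embryos. In such bulk samples fewer cells of a type and less RNA per cell cannot be told apart. Y-linked transcripts, as a mean level scaled to the highest pool, stood at 0.516, 0.870, 0.479 and 1 in the null pools, against 0.0228, 0.836, 0.280 and 0.0259 in the wild-type pools. These ranges overlapped through wild-type pool 2 alone, and wild-type pools 1, 3 and 4 lay below every null pool. The balance of embryo sex between the groups was not tested.

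Of the 37 genes, Ero1a and Herpud1 rose in the null pools, Creld2 fell and 34 did not pass the test. The 3 called genes were 8.11% of the members, beside 4.20% of all genes tested. By direction, 5.41% of the members were called higher, beside 2.85% of all genes, and 2.70% lower, beside 1.35%. The median difference was -0.05 over the members and -0.01 over all genes. Their quartiles lay between -0.15 and 0.10, against -0.14 and 0.15 over all genes. Without regard to sign the median difference was 0.14 over the members and 0.15 over all genes. An unadjusted p under 0.05 was seen for 9 members (24.3%, beside 20.7% of all genes), 5 of them higher (13.5%, beside 10.6%) and 4 lower (10.8%, beside 10.1%).

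Groups that did not overlap were found for 7 members, or 18.9%, beside 16.1% of all genes. Null values lay above all wild-type values for Ero1a, Herpud1, Atf6 and Eif2ak3 (10.8%, beside 8.08% of all genes), and below them for Creld2, Dnajb11 and Dnajc3 (8.11%, beside 8.06%). The differences of the 34 members that were not called ran from -0.36 (Dnajc3) to 0.29 (Atf6). For 27 of these 34 the whole 95% interval lay within 0.5 of zero on the log2 scale. Over all 34 the interval bounds reached 0.654-fold (Sdf2l1) and 1.49-fold (Edem2) of the wild-type signal.

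**Figure D1:**
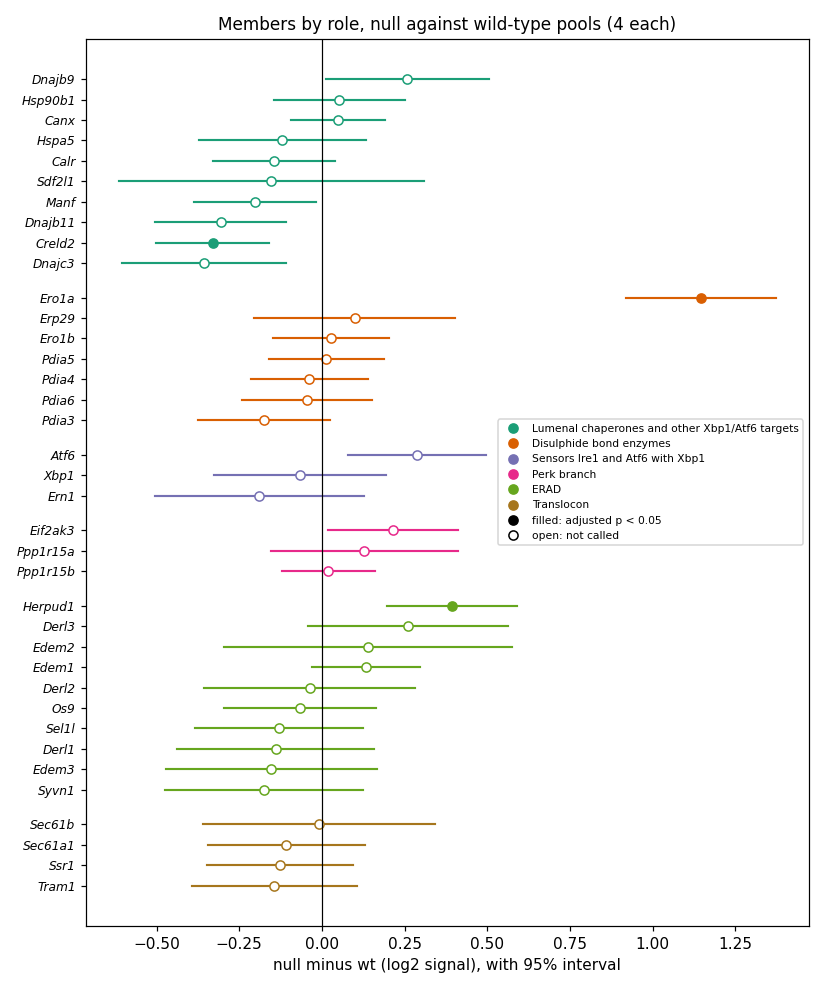
Difference of each of the 37 genes, null minus wild type in log2 signal on the x axis, with its 95% interval, grouped by role and with filled points for an adjusted p under 0.05. Ero1a stands alone at 1.15, Herpud1 and Creld2 are the other filled points at 0.39 and -0.33, and the open points lie between -0.36 and 0.29.

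The sensor transcripts did not pass the test. Ern1, which encodes the sensor kinase and nuclease Ire1, had -3.37, -3.20, -3.07 and -2.93 in null pools 1 to 4 and -3.08, -3.19, -2.72 and -2.81 in wild-type pools 1 to 4. The ranges overlapped, and the difference was -0.19 ± 0.14 (limma adjusted p = 0.501). Xbp1, the transcription factor gene whose transcript Ire1 splices, had 1.11, 1.47, 1.01 and 1.11 in the null pools and 1.26, 1.38, 1.14 and 1.19 in the wild-type pools. Null pool 2 was the highest of all 8 and null pool 3 the lowest, and the difference was -0.07 ± 0.11 (adjusted p = 0.811), with a 95% interval of -0.33 to 0.19.

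Atf6 had -0.32, -0.33, -0.11 and -0.10 in the null pools and -0.58, -0.56, -0.53 and -0.35 in the wild-type pools. The groups did not overlap on this probe, and the difference was 0.29 ± 0.09 (limma adjusted p = 0.122). The limma adjusted p was 0.0375 with the pool number as a block and 0.0392 with the slide as a block. These fits called 13.7% and 8.01% of all genes, against 4.20% in the main fit, and the labels do not state a pairing. A second Atf6 probe, at 170685339 to 170685398 on chromosome 1 (mm7), had the opposite sign, at -0.12 (adjusted p = 0.431 over all probes), while the first lies at 170684024 to 170684083. The 2 probes thus gave opposite directions, and the mean of both stood at 0.09.

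Of the Perk branch, all 3 members had higher means in the null pools. By limma 0 were called (beside 4.20% of all genes), and 1 of the 3 had an unadjusted p under 0.05 (beside 20.7%). Eif2ak3, which encodes the kinase Perk, had -0.68, -0.82, -0.70 and -0.71 in the null pools and -0.83, -1.13, -0.96 and -0.87 in the wild-type pools. The groups were apart by a narrow margin between null pool 2 and wild-type pool 1, with a difference of 0.22 ± 0.09 (adjusted p = 0.201, and 0.0583 with the pool number as a block). Ppp1r15b, a constitutive subunit of the phosphatase that reverses eIF2 phosphorylation, had 1.61, 1.65, 1.57 and 1.61 in the null pools and 1.58, 1.55, 1.61 and 1.62 in the wild-type pools. These groups overlapped almost wholly, at a difference of 0.02 ± 0.06 with a 95% interval of -0.12 to 0.16. Its stress-induced counterpart Ppp1r15a (Gadd34) stood at 0.13 ± 0.12 (adjusted p = 0.626).

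Of the 10 chaperones and other Xbp1 or Atf6 targets sorted into this role, 7 had lower and 3 higher means in the null pools. Among all 17099 genes, 8764 had lower means. The median difference of the 10 was -0.15, and 1 was called (10%, beside 4.20% of all genes). ERAD genes, which both factors also raise, were sorted into a role of their own, where 4 means were higher and 6 lower. Hspa5, the main Hsp70 chaperone of the ER and a standard readout of the unfolded protein response, had 5.98, 6.01, 5.77 and 5.77 in the null pools and 6.11, 6.18, 5.81 and 5.91 in the wild-type pools. Each null pool lay below the wild-type pool of its number, but the groups overlapped, and pools 3 and 4 were lower than pools 1 and 2 in both. The difference was -0.12 ± 0.11 (limma adjusted p = 0.607), with a 95% interval of -0.37 to 0.13.

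Creld2, a secreted ER stress-inducible protein with disulphide isomerase activity, was the called member of this role. It had 4.18, 4.26, 4.16 and 4.13 in the null pools and 4.47, 4.64, 4.42 and 4.52 in the wild-type pools. All null values lay below all wild-type values, and the signal fell by 0.33 ± 0.07 (SE, log2; limma adjusted p = 0.0490), so that it was 1.26-fold higher in wild type. Averages were 4.18 ± 0.06 in the null pools and 4.51 ± 0.09 in the wild-type pools (SD, n = 4 each). The call lay at the edge of the threshold and was lost in all 8 fits without 1 pool, at adjusted p of 0.0586 to 0.145. With the Y-linked level as a covariate the adjusted p was 0.0822.

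A pair of Hsp40 co-chaperones of Hspa5 had separate groups without passing the test. Dnajc3 (P58IPK), which also inhibits Perk, had 0.90, 0.49, 0.74 and 0.52 in the null pools and 1.14, 0.94, 1.01 and 0.98 in the wild-type pools. Its difference was -0.36 ± 0.11 (limma adjusted p = 0.110, and 0.0324 with the pool number as a block), and its 4 probes ran from -0.42 to -0.24. Dnajb11 (ERdj3) had 3.45, 3.56, 3.62 and 3.70 in the null pools and 3.80, 3.96, 3.80 and 4.00 in the wild-type pools. Here too the groups were apart, at -0.31 ± 0.09 (adjusted p = 0.0920, and 0.0353 with the block). The fit with the block called 13.7% of all genes, against 4.20% in the main fit. Another Hsp40 gene, Dnajb9 (ERdj4), had higher values, with -0.92, -0.58, -0.76 and -0.73 in the null pools and -1.15, -1.14, -0.91 and -0.83 in the wild-type pools. Null pool 1 lay below wild-type pools 3 and 4, and the difference was 0.26 ± 0.11 (adjusted p = 0.223).

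The remaining chaperone genes lay closer to zero than these Hsp40 genes. Manf, a secreted ER stress-inducible factor, stood at -0.20 ± 0.08, the lectin chaperone gene Calr at -0.15 ± 0.08 and the Hspa5 partner gene Sdf2l1 at -0.15 ± 0.20 (limma adjusted p = 0.198, 0.361 and 0.740). Manf and Calr were lower in all 4 null pools than in the wild-type pools of the same number. Their limma adjusted p was 0.0528 and 0.112 with the pool number as a block. In Sdf2l1 null pool 2 was high, at 2.93, and the other null pools lay at 2.10 to 2.20. Hsp90b1 (Grp94), the Hsp90 chaperone of the ER, stood at 0.05 ± 0.09 and the membrane lectin chaperone gene Canx at 0.05 ± 0.06 (adjusted p = 0.805 and 0.733).

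**Figure D2:**
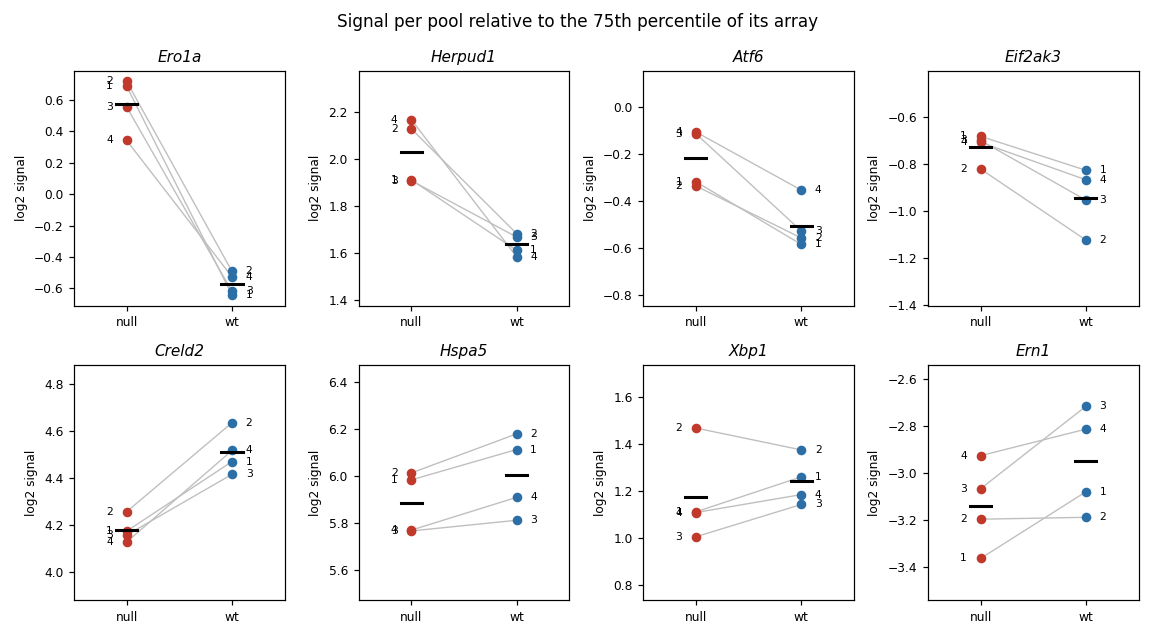
Log2 signal relative to the 75th percentile of the array for 8 genes, with 1 point per pool, the null pools left of the wild-type pools, grey lines joining pools of the same number and black bars at the means. The groups are apart for Ero1a, Herpud1, Atf6, Eif2ak3 and Creld2 and overlap for Hspa5, Xbp1 and Ern1, and each panel has its own y axis.

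The promoters of these genes are shown because they hold the elements through which Atf6 and Xbp1 are known to act, beside values that moved little. RefSeq windows of 300 bases, from 250 before to 50 after the start of transcription (GRCm38.p6), were at hand for 30 of the 37 genes. Those not matched were Atf6, Derl1, Erp29, Manf, Ppp1r15b, Sec61a1 and Tram1. The ER stress response element (ERSE), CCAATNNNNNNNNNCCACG on either strand, was found in 10 of the 30 members (33.3%). It was found in 0.184% of the 11428 tested genes with a window (21 genes, the 10 members included), and in 0.119% of all 32851 windows. The list holds known targets of these factors, so a high share was built into the choice of genes and is not a result of these data. The stretches below hold it in capitals, read on the strand of the gene, so that CGTGG opens it where it lies in reverse.
Hspa5: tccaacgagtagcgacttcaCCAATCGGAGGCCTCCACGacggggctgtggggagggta
Hsp90b1: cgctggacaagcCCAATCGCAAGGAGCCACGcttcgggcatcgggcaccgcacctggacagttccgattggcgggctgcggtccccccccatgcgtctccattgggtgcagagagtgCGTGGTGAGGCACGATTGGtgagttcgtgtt
Calr: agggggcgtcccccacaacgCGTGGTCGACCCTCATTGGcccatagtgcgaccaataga
Creld2: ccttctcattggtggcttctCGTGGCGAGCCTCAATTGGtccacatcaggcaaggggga
Dnajc3: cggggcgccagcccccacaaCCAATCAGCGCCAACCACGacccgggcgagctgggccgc
Syvn1: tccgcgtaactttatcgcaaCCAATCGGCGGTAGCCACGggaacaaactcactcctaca
Hspa5 is shown over chr2:34772005-34772063 (+), Hsp90b1 over chr10:86705521-86705668 (-) and Calr over chr8:84847055-84847113 (-). Creld2 is shown over chr15:88819500-88819558 (+), Dnajc3 over chr14:118937807-118937865 (+) and Syvn1 over chr19:6046512-6046570 (+). Hsp90b1 holds the element 2 times in this stretch, once in each orientation. The other members with an ERSE were Canx, Derl3, Ero1b and Pdia6.

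The 10 members with an ERSE included the called gene Creld2, and their differences ran from -0.36 (Dnajc3) to 0.26 (Derl3). Of the 10, 6 had a lower and 4 a higher mean in the null pools, with a median difference of -0.08, against -0.04 for the 20 members whose windows lack it. The element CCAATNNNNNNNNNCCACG holds the CCAAT box, which alone was present in 22 of the 30 members (73.3%) and 42.7% of tested genes. The UPRE, TGACGTGG, was found in 0 of the 30 members, against 1.06% of tested genes. A match describes letters in the window and not binding.

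Herpud1 and Ero1a, the 2 genes that rose, had no ERSE but had other elements in their windows. A part of these elements in the rises was not tested. Herpud1 holds ERSE-II, ATTGGNCCACG, found in 0.0788% of tested genes with a window. It is shared by 1 other member, Dnajb11, which stood at -0.31 and was not called. Among the 30 members Herpud1 alone (3.33%) had the amino acid response element (AARE) TGATGNAA, at which Atf4 acts, present in 2.70% of tested genes. Ero1a holds ACGTG, the core of the hypoxia response element, which 14 of the 30 members (46.7%) and 28.1% of tested genes hold. Of these 14, 7 had a lower and 7 a higher mean in the null pools, with a median difference of -0.02. Called among them were 2, Ero1a and Herpud1, beside 167 of the 3209 tested genes that hold it. Chac1, an Atf4 and Ddit3 target described below, is set beside Herpud1 for its AARE. Capitals mark the AARE (TTGCATCA, the element in reverse) and ERSE-II in Herpud1, the AARE in Chac1 and the reverse of the hypoxia core in Ero1a.
Herpud1: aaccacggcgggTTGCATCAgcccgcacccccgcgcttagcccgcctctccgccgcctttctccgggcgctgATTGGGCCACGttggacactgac
Chac1: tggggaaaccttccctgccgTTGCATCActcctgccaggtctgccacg
Ero1a: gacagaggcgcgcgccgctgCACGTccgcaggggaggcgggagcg
Herpud1 is shown over chr8:94386305-94386399 (+), Chac1 over chr2:119351029-119351076 (+) and Ero1a over chr14:45318611-45318655 (-). All motifs were searched on both strands. ERSE-II holds the CCAAT box in reverse, UPRE holds ACGTG, and in Herpud1 the hypoxia core overlaps the end of ERSE-II.

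Ero1a, the oxidase that recharges protein disulphide isomerase and a gene known to respond to low oxygen, had the largest difference of all 37 genes. Its signal was 0.69, 0.72, 0.56 and 0.34 in null pools 1 to 4 and -0.64, -0.49, -0.62 and -0.53 in wild-type pools 1 to 4. Every null pool lay above every wild-type pool, with a gap far wider than the spread within either group, and null pool 4 was the lowest of the null pools. The means were 0.58 ± 0.17 in the null pools and -0.57 ± 0.07 in the wild-type pools (SD, n = 4 each). This was a 2.21-fold rise (1.15 ± 0.10, SE, log2), with a 95% interval of the log2 difference of 0.92 to 1.37 and a limma adjusted p of 0.00294. It ranked 13 among all genes by p.

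The second Ero1a probe, at 40602751 to 40602810 on chromosome 14 (mm7), gave a 2.65-fold rise (limma adjusted p = 0.00178 over all probes). Ero1a kept its call in all 8 fits without 1 pool, at adjusted p of 0.00185 to 0.0221. It was not called under normexp background correction (0.95, adjusted p = 0.236), nor within slide 1 (1.27, adjusted p = 0.179) or slide 2 (1.02, adjusted p = 0.131), each with 2 pools per group. Its relative Ero1b, the form known from pancreas, stood at 0.03 ± 0.08 (adjusted p = 0.904, 95% interval -0.15 to 0.20).

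The other disulphide enzymes did not follow Ero1a. The isomerase gene Pdia3 had 4.55, 4.68, 4.64 and 4.81 in the null pools and 4.78, 4.75, 4.87 and 4.98 in the wild-type pools. Each null pool lay below the wild-type pool of its number, and the groups overlapped, at -0.17 ± 0.09 (limma adjusted p = 0.306). The isomerase genes Pdia4, Pdia5 and Pdia6 stood at -0.04 ± 0.08, 0.01 ± 0.08 and -0.05 ± 0.08, and Erp29, a thioredoxin-fold protein without the redox site, at 0.10 ± 0.13 (adjusted p = 0.745 to 0.959 for these 4). The 4 kept probes of Pdia6 ran from -0.26 to 0.21.

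Of the 10 ERAD genes, Herpud1 rose (10%, beside 2.85% of all genes) and 9 did not pass the test. Herpud1, a membrane protein that gathers the ERAD complex around the ubiquitin ligase Hrd1, had 1.91, 2.13, 1.91 and 2.17 in the null pools and 1.61, 1.68, 1.67 and 1.58 in the wild-type pools. The groups did not overlap, and null pools 2 and 4 were the highest. Means were 2.03 ± 0.14 in the null pools and 1.64 ± 0.05 in the wild-type pools (SD, n = 4 each), a 1.31-fold rise (0.39 ± 0.09, SE, log2; limma adjusted p = 0.0445). The call was lost in all 8 fits without 1 pool, at adjusted p of 0.0612 to 0.133, and with the Y-linked level as a covariate (0.29, adjusted p = 0.140).

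Syvn1, which encodes Hrd1 itself, had 4.04, 3.57, 4.11 and 4.02 in the null pools and 4.16, 3.95, 4.22 and 4.12 in the wild-type pools. Null pool 2 was low, the other pools of both groups overlapped, and the difference was -0.18 ± 0.13 (limma adjusted p = 0.508). Sel1l, the Hrd1 partner, stood at -0.13 ± 0.11, and Os9, a lectin that delivers substrates to the complex, at -0.07 ± 0.10. Among the mannose-trimming genes, Edem1 stood at 0.13 ± 0.07, Edem2 at 0.14 ± 0.19 and Edem3 at -0.15 ± 0.14. Of the derlins, membrane proteins of the exit route, Derl1 stood at -0.14 ± 0.13, Derl2 at -0.04 ± 0.14 and Derl3 at 0.26 ± 0.13. The lowest adjusted p among these 8 was that of Derl3, at 0.313.

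All 4 translocon genes had lower means in the null pools. By limma 0 were called (beside 4.20% of all genes) and 0 had an unadjusted p under 0.05 (beside 20.7%). Tram1, a membrane protein beside the channel, had 1.45, 1.73, 1.42 and 1.38 in the null pools and 1.71, 1.79, 1.46 and 1.60 in the wild-type pools. The groups overlapped, with pool 2 the highest in both, at -0.14 ± 0.11 (adjusted p = 0.517). Sec61b, a channel subunit, had 5.90, 6.47, 6.01 and 6.06 in the null pools and 6.05, 6.41, 5.89 and 6.12 in the wild-type pools. Pool 2 was again the highest of each group, and the difference was -0.01 ± 0.15. The channel gene Sec61a1 stood at -0.11 ± 0.10 and Ssr1, of the associated TRAP complex, at -0.13 ± 0.10.

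**Figure D3:**
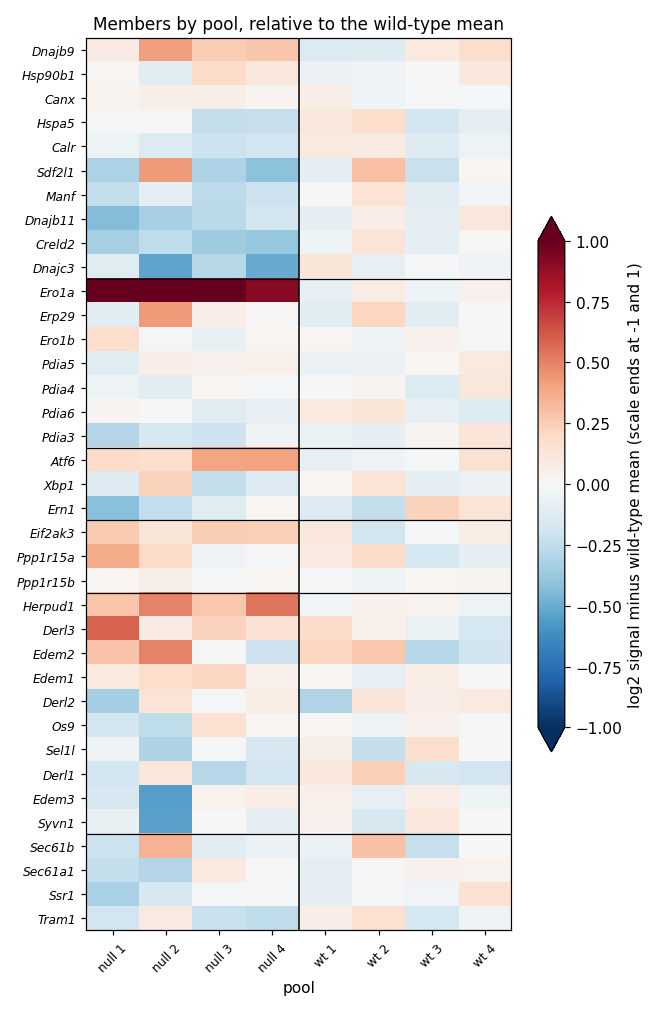
Log2 signal of the 37 genes in each pool minus the wild-type mean of the gene, as colours from -1 to 1, with the 4 null pools left of the 4 wild-type pools and genes grouped by role. Ero1a has the highest values in all 4 null pools, and null pool 2 differs from its group in Sdf2l1 and Syvn1.

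Pools of the same number could be set side by side, although the labels do not say that they form pairs. Of the 37 genes, 9 were higher in the null pool in all 4 pairs (24.3%, beside 22.5% of all genes) and 12 were lower in all 4 (32.4%, beside 24.2%). The chaperones and other Xbp1 or Atf6 targets supplied 6 of the 12, which is 6 of their 10. With the pool number as a block in limma, Atf6 joined Ero1a and Herpud1 as higher and Dnajb11 and Dnajc3 joined Creld2 as lower. That made 3 higher members (8.11%, beside 7.78% of all genes) and 3 lower members (8.11%, beside 5.92%), in a fit that called 13.7% of all genes. With the slide as a block Atf6 was the only addition. The called members were then 4 of the 37 (10.8%), in a fit that called 8.01% of all genes. Both slides gave 28 of the 37 genes (75.7%) the same sign, beside 75.9% of all genes.

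Several probes for a gene often disagreed at this size of difference. Of 18 members with more than 1 kept probe, 6 had the same sign on all of them, namely Calr, Dnajb9, Dnajc3, Ero1a, Hsp90b1 and Ppp1r15b. The other 12 had both signs, with probes of a gene up to 0.47 apart.

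**Figure D4:**
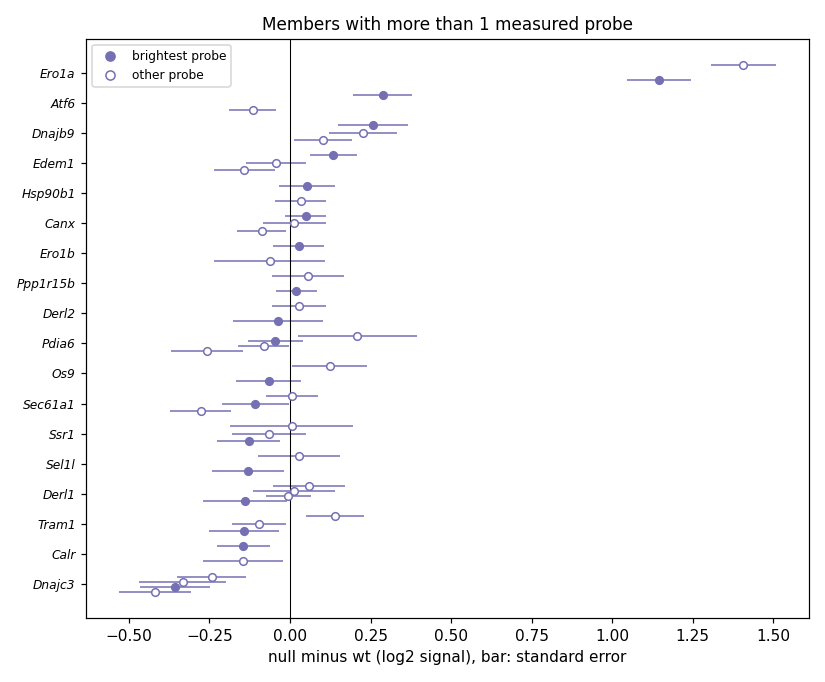
Difference of every kept probe, null minus wild type in log2 signal, for the 18 genes with more than 1 kept probe, with the brightest probe filled and bars for the standard error. Both Ero1a probes exceed 1, the 4 Dnajc3 probes all lie below zero, and Atf6 and Pdia6 have probes on both sides.

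Genes of the same pathways beyond the 37 were read from lists chosen for this comparison. The 4 further ER lists, covering other chaperones, other ERAD genes, other translocon and glycosylation genes and other sensors, held 88 measured genes of 89. By limma 0 were called, beside 4.20% of all genes. An unadjusted p under 0.05 was seen for 7 of the 88 (3 higher and 4 lower), or 7.95%, beside 20.7% of all genes. Their median difference was -0.03. The nearest to a call was Sil1, the exchange factor of Hspa5, with 2.77, 3.35, 2.90 and 2.94 in the null pools and 2.47, 2.54, 2.47 and 2.55 in the wild-type pools. All null values lay above, with null pool 2 the highest, at 0.48 ± 0.12 (adjusted p = 0.0717). Atf6b, a relative of Atf6, was below in all null pools at -0.30 ± 0.09 (adjusted p = 0.106).

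The list of eIF2 kinases and known outputs of eIF2 phosphorylation differed in part from this picture. Of 15 kinases and outputs, 5 rose (33.3%, beside 2.85% of all genes), 1 fell (6.67%, beside 1.35%) and 9 were not called. The median difference was 0.54. The pattern of this list was known from these data when it was drawn up. Ddit3 had -0.83, -0.55, -1.27 and -0.78 in the null pools and -2.46, -2.45, -2.31 and -2.57 in the wild-type pools, and rose 3.01-fold (limma adjusted p = 0.00388). Chac1, an enzyme that breaks down glutathione, had 1.57, 2.34, 0.52 and 0.98 in the null pools and -2.09, -1.97, -2.04 and -2.0 in the wild-type pools, and rose 10.4-fold (adjusted p = 0.00453). The null pools were well apart from the wild-type pools in both genes, and pool 2 was the highest and pool 3 the lowest null pool.

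Sesn2, a stress-induced inhibitor of mTORC1, rose 1.91-fold (limma adjusted p = 0.00657), as did the pseudokinase gene Trib3, 4.75-fold, and the stress gene Nupr1, 5.17-fold (adjusted p = 0.0132 for each). Eif2ak1, the haem-regulated eIF2 kinase, was the 1 that fell, by 0.39 ± 0.08 (SE, log2; adjusted p = 0.0377). Atf4 stood at 0.05 ± 0.11 (adjusted p = 0.857), a transcript whose output is set largely by translation. In the same pools Hspa5 stood at -0.12 and Xbp1 at -0.07.

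The hypoxia list had 11 of 15 genes called higher by limma (73.3%, beside 2.85% of all genes). It was drawn up because of Ero1a and with earlier results of these data known, so this share describes chosen genes only. By the same test 0 were called lower (beside 1.35%), and 0 were lower at an unadjusted p under 0.05 (beside 10.1%). Its median difference was 0.88. All 15 had higher means in the null pools, so the counts of lower genes were bound to be 0. The hypoxia-induced gene Ndrg1 rose 5.21-fold, the mitophagy receptor gene Bnip3 2.63-fold and the glycolytic aldolase gene Aldoc 2.52-fold (limma adjusted p = 0.00112, 0.00220 and 0.00525). Bnip3 had 4.66, 4.87, 4.65 and 4.35 in the null pools and 3.17, 3.24, 3.24 and 3.29 in the wild-type pools. Pool 4 was the lowest null pool, and no null value came near a wild-type value. A cause shared with Ero1a was not tested.

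**Figure D5:**
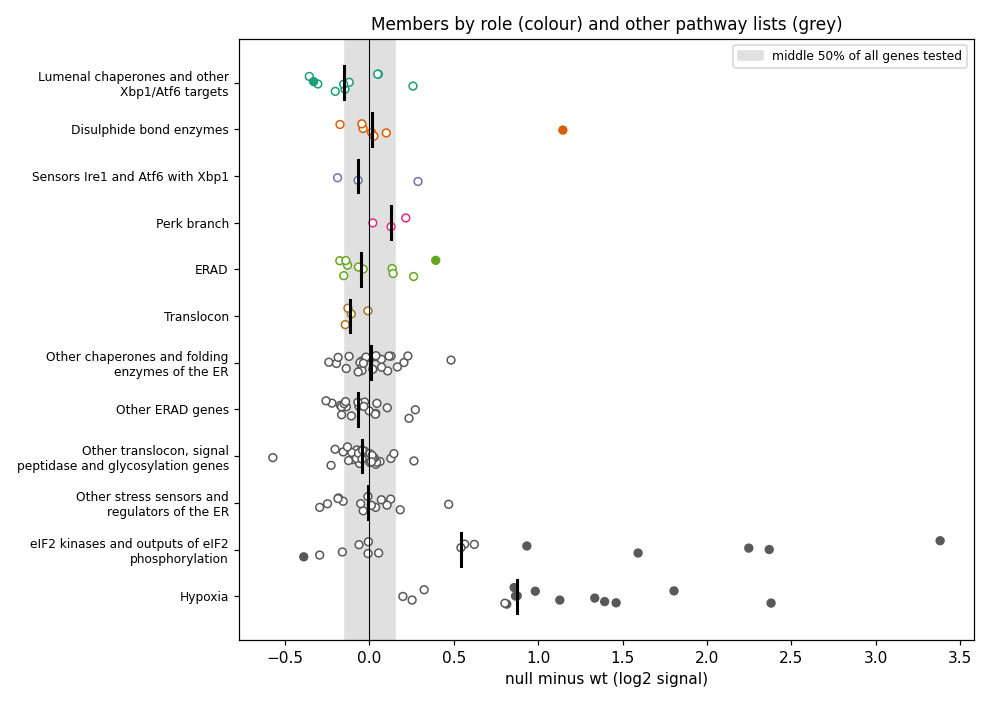
Differences, null minus wild type in log2 signal, of single genes in the roles of the 37 members and in the 6 further lists, with called genes filled, black bars at the medians and a grey band over the quartiles of all genes. The ER lists centre near zero, while the eIF2 and hypoxia lists have medians of 0.54 and 0.88.

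Summed signals of cell type markers differed between the groups for some of the lists, and the brightest markers weigh most in such sums. By limma 1 of the 43 markers was called higher and 2 lower (beside 2.85% and 1.35% of all genes). In the heart muscle and neural tube lists 0 were called. The summed linear signal of 7 heart muscle markers was 258 to 275 in the null pools and 214 to 230 in the wild-type pools, and that of 5 surface epithelium markers 102 to 128 in the null pools and 78.5 to 98.9 in the wild-type pools, of which Krt19 rose. The sum of 5 neural tube markers was 29.7 to 32.7 in the null pools and 33.9 to 41.6 in the wild-type pools. The ranges were apart in these 3 of the 7 lists. Among single genes the groups were apart in 16.1% of all genes, and no such share was taken for sums. Sums overlapped for 9 markers of yolk sac endoderm, a tissue rich in secretory cells, at 11.9 to 22.3 in the null pools and 12.3 to 22.6 in the wild-type pools.

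They also overlapped for 6 markers of primitive erythroid cells, at 215 to 375 in the null pools and 262 to 417 in the wild-type pools, where Klf1 fell. For 5 endothelial markers the sums were 6.41 to 8.57 in the null pools and 5.99 to 7.20 in the wild-type pools, and for 6 somite markers 14.5 to 21.0 in the null pools and 17.4 to 21.7 in the wild-type pools, where Pax1 fell. No listed marker was at zero. The part of cell composition in the differences of Ero1a, Herpud1 and Creld2 was not tested.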

How the data were processed

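Total RNA of 8 whole-embryo pools, 4 null and 4 wild type, was measured on 1-colour Agilent arrays, and groups and pool numbers follow the labels. The labels do not say whether litters differed between pools, so p-values measure only the pool-to-pool spread, which may be technical. The deposited spot intensity was made, per the file headers, by Feature Extraction 9.5.3.1, which subtracted a spatial background and detrended each array, without scaling between arrays. The deposited value table holds log2 values, and how the authors made them is not stated in these sources. Its column medians were 9.44 to 9.47. Each column correlated with the scanner signal at 0.988 or more, and its differences for pair 1 at 0.954, which settles direction. Its added constant and its scale, with a slope of 0.893 on quantile-normalized log2 signals, stay unknown, and it served as an alternative.

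Control and outlier spots were left out, spots of a probe were averaged as log2 signals, and signals were set relative to the 75th percentile of the array. A probe was kept if 4 or more of the 8 arrays had it well above background (25555 probes), and the brightest kept probe with at least 2 values per group stood for a gene. Names were updated through a RefSeq table of GRCm38.p6, by accession for 22951 probes, symbol for 6659 and older name for 3109, while 8455 kept the name in the file. Probe coordinates are those of the files (mm7). The comparison used limma 3.58.1 under R 4.3.3 (lmFit and eBayes, genotype only, two-sided), with Benjamini-Hochberg adjustment over all 17099 genes and a threshold of 0.05. The fit was tested on simulated data. The number of arrays limits the precision.

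The members, lists and alternatives were chosen with earlier results of these data known. Named with full values were called members, Hspa5, Xbp1, the 3 sensor genes, and the highest and lowest member of each role. Up to 3 called genes of each further list, those with the smallest p, were also named. Of these, Sesn2, Ndrg1 and Aldoc are given without pool values. Dnajb11, Sil1, Atf6b, Trib3, Nupr1, Eif2ak1 and Atf4 were added after their values were seen. Same-numbered pools departed together from their group means (correlations of 0.557, 0.635, 0.523 and 0.426 over 17002 genes for numbers 1 to 4). They also shared a slide, and pools of different numbers were not compared. The correlations therefore cannot tell pairing from a shared slide. The labels do not state a pairing, and values with the pool number as a block are given as an alternative only. Alternatives were other background correction, scaling, filters, probe rules, blocks, single slides, the deposited table, leaving out each pool and, added after seeing the data, the Y-linked level as a covariate.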

Additional observations from a re-analysis of the deposited data

Results flagged for a closer look

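Among the 37 genes and Arid3b, 76 groups of 4 pools were examined for a pool far from the others of its group, where chance gives about 1 in 20, or 3.8. In 5 groups a pool stood apart. Sdf2l1 had 2.93 in null pool 2, above 2.10 to 2.20 in the other null pools. Syvn1 had 3.57 in the same pool, below 4.02 to 4.11 in the others. Pdia5 had 1.72 in null pool 1, below 1.89 to 1.91. Derl2 had 2.28 in wild-type pool 1, below 2.65 to 2.71 in the other wild-type pools. Arid3b had 2.48 in null pool 4, above 1.83 to 1.89 in the other null pools.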

How the results depend on the processing

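All alternatives kept the direction of each named gene that was called. Across the series the count of called genes, 718 (67.8% higher), was 2343 with the replicate number as a block, 1370 with slide as a block, 463 with the deposited value table, 304 with the Y-linked level as a covariate, 204 with a median shift (52.0% higher), 164 without the filter on dim probes, 157 with no shift between arrays (79.6% higher) and 93 to 626 without 1 pool. Normexp and either slide alone called 0, with 737, 1880 and 2879 genes at an unadjusted p under 0.05. Of the members, 2 higher became 1 with the Y-linked covariate, the median shift, no shift, no filter or without any 1 pool (1 to 1), always by the loss of Herpud1, and 0 under normexp and within slides. The 1 lower member, Creld2, became 3 with the replicate block and 0 with the deposited table, the mean of all probes, the Y-linked covariate, the median shift, no shift, no filter, normexp, either slide alone and without any 1 pool (0 to 0). The member median of -0.0452 was -0.136 with the median shift, -0.116 with no shift and 0.000812 under normexp, where the median over all genes was -0.10, -0.08 and -0.07, and -0.0719 to -0.0226 without 1 pool. Arid3b stood at -1.34 under normexp, -1.52 within slide 1 and -1.18 within slide 2, without passing the test, and at -1.51 to -1.29 without 1 pool. The causes of these shifts were not tested, except that fewer arrays enter the fits without a pool and within slides. With 4 pools a group, differences of the size seen in most members cannot be told from zero.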
